A study of Mus musculus with 14 samples.

Results

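Myofibroblast contractile genes encode the actin filaments, myosin light chain and filament-binding proteins that let activated stromal cells pull on matrix. The 10 genes Acta2, Actg2, Tagln, Cnn1, Myl9, Tpm1, Tpm2, Cald1, Lmod1 and Pgm5 were taken by name from the 55487 genes of the count tables, and all 10 were found. They were followed in marrow cultures labelled as stromal cells (MSC) and given PBS or interleukin-1β (IL-1β), with sorted hematopoietic cells for comparison. Macrophage markers summed higher than mesenchymal markers in every MSC library. All 10 contractile genes were read at lower levels in both IL-1β-treated MSC libraries than in both PBS libraries, as were 29.8% of all genes tested. Cnn1 and Pgm5 passed the test for lower levels, as 4.31% of all genes did. These calls depended on which libraries entered the fit. In the sorted hematopoietic cells 8 of the 10 were at or close to 0.

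The study asked how IL-1β acts on marrow cells in a mouse model of myeloproliferative neoplasm and marrow fibrosis, and RNA was sequenced from 14 libraries of C57BL/6 mice. The cultures labelled MSC were grown from wild-type bone marrow for 21 days and given PBS (replicates 2 and 3) or IL-1β at 5 ng/ml (replicates 1 and 2) for 72 h. Lineage-negative Sca1+ c-kit+ (LSK) stem and progenitor cells and lineage-negative c-kit+ progenitors (labelled MP(LK), here LK) were sorted from lethally irradiated C57BL/6 recipients of heterozygous Jak2V617F marrow that were injected for 16 weeks with PBS (3 libraries of each population) or IL-1β (2 libraries of each; 0.5 μg per dose, 3 doses a week). Jak2V617F was switched on in the donor mice before transplantation, by pI-pC through Mx1Cre, which acts in interferon-responsive cells and not in blood cells alone. The recipients received the mutation with the transplanted marrow, and the PBS-treated LSK and LK cells carried it too. MSC were wild type and cultured, so that population, culture and genotype cannot be told apart between MSC and the sorted cells. Nothing in the labels says that the libraries of a group came from separate mice or cultures, and p-values then measure only the spread between these libraries, which may be technical in part.

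In smooth muscle cells and myofibroblasts, force comes from myosin sliding on filaments of smooth muscle actin. Tropomyosin lies along the filament, caldesmon and calponin restrain the myosin, and phosphorylation of the regulatory light chain starts contraction. Many of these genes are driven by serum response factor (SRF), which binds CArG boxes together with cofactors of the myocardin and MRTF family, and TGF-β is the best known inducer. In bone marrow, Acta2 marks stromal cells that have turned into myofibroblasts during fibrosis, and pericytes and smooth muscle of vessel walls also express the set.

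RefSeq promoter windows (GRCm38.p6, 250 bases before to 50 bases after a start) were found for 8 of the 10 genes, in 9 windows, and none for Actg2 and Tagln. A CArG box was found in 1 of the 9 windows, that of Myl9, and in 1.63% of all 32851 windows. Allowing 1 other base inside the A/T run, Acta2 joined Myl9, so that 2 of 9 windows held a box against 9.98% of all windows. The MCAT element bound by TEAD factors (CATTCC, either strand, sharing bases with a box in 0 of the 9 windows) was present in 4 of 9 windows, those of Acta2, Cald1, Lmod1 and Tpm1, against 14.7% of all windows. The box sequences are shown because they are the motif through which SRF is known to act. Capitals mark the boxes, all letters run 5′ to 3′ on the gene's strand, and the Myl9 boxes begin 117 and 55 bases before the annotated gene start, the second with 1 other base in its A/T run. The stretches of Acta2 each have 1 other base in the box, and their starts are 50 bases apart. They lie inside the annotated gene span (chr19:34241090-34255590), because the RefSeq start of this window is further inside the gene than the annotated gene start. Their place is therefore not given relative to that gene start, and they are not read as exonic.
Myl9 chr2:156775214-156775419, + strand: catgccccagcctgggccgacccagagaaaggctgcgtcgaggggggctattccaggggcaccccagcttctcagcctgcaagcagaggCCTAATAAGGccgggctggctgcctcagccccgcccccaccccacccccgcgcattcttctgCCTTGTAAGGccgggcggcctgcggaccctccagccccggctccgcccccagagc
Acta2 chr19:34255438-34255467, − strand: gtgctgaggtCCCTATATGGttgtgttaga
Acta2 chr19:34255388-34255417, − strand: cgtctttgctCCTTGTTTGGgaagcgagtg

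The libraries held 4393233 to 30871055 counted read pairs, and the shallowest MSC one was PBS replicate 2 with 5834909. The MSC label was checked against cell type markers. All 19 macrophage markers were above 1 CPM (counts per 1000000 counted read pairs) in each of the 4 MSC libraries, and they summed to 23648 and 27248 CPM under PBS and to 45585 and 46876 CPM under IL-1β. Lyz2 alone was at 7124 and 4794 CPM under PBS and at 19845 and 20776 CPM under IL-1β, and the median marker was at 765 and 682 CPM under PBS and at 664 and 642 CPM under IL-1β. The 20 mesenchymal markers summed to 3509 to 6945 CPM, and Lepr, a marker of marrow stromal cells in vivo, had no read pair under PBS. The macrophage sum was the larger one in each MSC library, so these were mixed cultures and the label MSC does not name a pure stromal population. PBS replicate 3 also stood apart: it had no Xist read pair and a summed level of 182 CPM over 4 Y-linked genes, whereas the other 3 MSC libraries held both Xist (47.2 to 68.9 CPM) and the Y-linked genes (102 to 133 CPM). The 10 LSK and LK libraries held Xist and at most 0.175 CPM of the Y-linked genes. MSC and the sorted cells thus also differed in sex-linked genes, which cannot be told apart from population, culture and genotype. Whether the sex-linked genes go with the other differences between the PBS libraries of MSC was not tested.

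Levels are given in CPM scaled within each population, as PBS replicates 2 and 3 and then IL-1β replicates 1 and 2. Acta2, the smooth muscle α-actin used to define myofibroblasts, was at 773 and 328 CPM under PBS and at 233 and 245 CPM under IL-1β. The IL-1β libraries lay close together and below both PBS libraries, which differed 2.36-fold from each other. The fitted level was 2.30-fold lower with IL-1β (log2 fold change -1.20 ± 0.42 SE, edgeR quasi-likelihood test, Benjamini-Hochberg adjusted p = 0.139), which did not pass. Actg2, the enteric smooth muscle γ-actin, was at 96.1 and 41.4 CPM under PBS and at 29.8 and 32.0 CPM under IL-1β. Its groups did not overlap either, and its log2 fold change was -1.13 ± 0.41 SE (edgeR adjusted p = 0.152). Fewer contractile cells and less of these RNAs per cell cannot be told apart in bulk libraries.

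Of the 10 genes, 10 had both IL-1β libraries below both PBS libraries, which was so for 29.8% of the 13239 genes tested. A gene was called at an adjusted p under 0.05 and an absolute log2 fold change over 0.5. By this rule 2 of the 10 were lower and none was higher, while 4.31% of all genes were called lower and 7.14% higher. The 10 genes had a median log2 fold change of -1.29, and all genes tested one of 0.00.

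**Figure D1:**
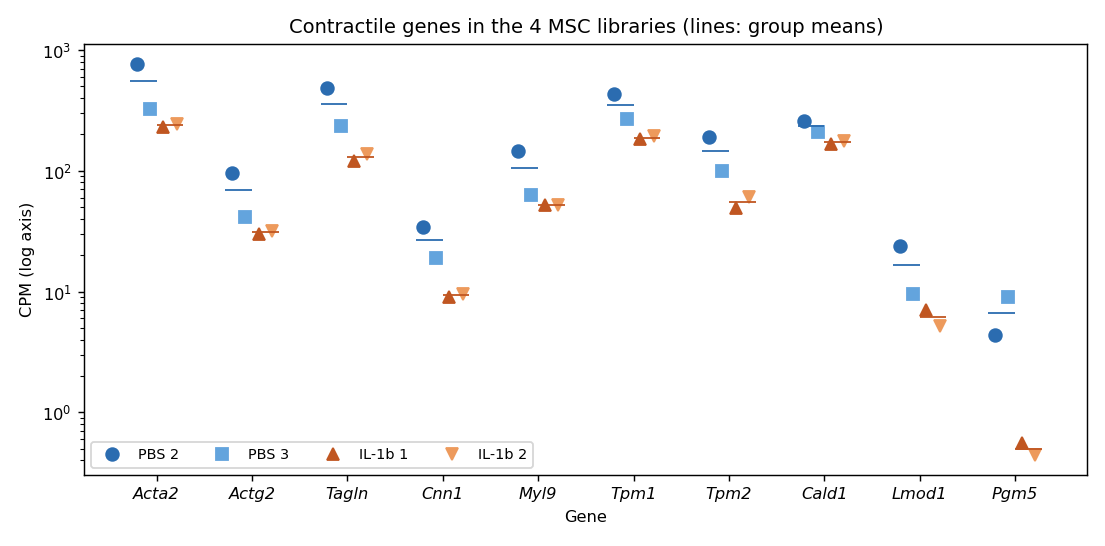
CPM (log axis) of the 10 genes in the 4 MSC libraries, with blue points for PBS replicates 2 and 3, orange points for IL-1β replicates 1 and 2, and lines for the group means. Both IL-1β libraries lie below both PBS libraries for every gene shown, and PBS replicate 2 is the highest library for 9 genes but not for Pgm5.

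Myl9, the regulatory light chain of smooth muscle and non-muscle myosin whose promoter carries the CArG box shown above, was at 147 and 62.5 CPM under PBS and at 52.2 and 52.5 CPM under IL-1β. PBS replicate 3 was 1.19-fold above the mean of the IL-1β libraries, the smallest such distance among the 10 genes. The log2 fold change was -0.98 ± 0.42 SE (edgeR adjusted p = 0.207).

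Among the filament-binding proteins, Cnn1, or calponin 1, an inhibitor of the myosin ATPase typical of differentiated smooth muscle, was at 34.3 and 18.8 CPM under PBS and at 8.97 and 9.61 CPM under IL-1β. It fell 2.82-fold (log2 fold change -1.49 ± 0.30 SE, edgeR adjusted p = 0.0341). Tagln, or SM22α, an actin cross-linker and early smooth muscle marker, was at 485 and 237 CPM under PBS and at 122 and 137 CPM under IL-1β. Its log2 fold change of -1.48 ± 0.36 SE was about as large, and its edgeR adjusted p of 0.0652 missed the threshold. Tagln shares 1241 exon bases with Gm48529 on the opposite strand, which had 21 to 363 read pairs in the MSC libraries against 1554 to 3712 for Tagln, and 108 exon bases with Pcsk7, also on the opposite strand, which had 126 to 1090. The counting was set to use strand, but the labels do not say whether the kit keeps it, so Tagln may not be fully separated from these neighbours. Cald1, or caldesmon, which ties actin to myosin and is also made in a non-muscle form, was at 260 and 210 CPM under PBS and at 168 and 177 CPM under IL-1β. It had the smallest difference and the smallest error of the 10 genes (log2 fold change -0.44 ± 0.13 SE, edgeR adjusted p = 0.088).

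The tropomyosin genes Tpm1 and Tpm2 each make muscle and non-muscle isoforms, which counts per gene do not separate. Tpm1 was at 435 and 269 CPM under PBS and at 182 and 192 CPM under IL-1β (log2 fold change -0.91 ± 0.23 SE, edgeR adjusted p = 0.0638). Tpm2 was at 190 and 99.98 CPM under PBS and at 49.2 and 60.5 CPM under IL-1β (log2 fold change -1.40 ± 0.33 SE, edgeR adjusted p = 0.0634). For both genes the PBS libraries differed more from each other than the IL-1β libraries did, by 1.62-fold for Tpm1 and 1.90-fold for Tpm2.

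Lmod1, or leiomodin 1, which starts new actin filaments in smooth muscle, was at 23.8 and 9.55 CPM under PBS and at 7.04 and 5.20 CPM under IL-1β (log2 fold change -1.38 ± 0.46 SE, edgeR adjusted p = 0.122). Pgm5, an enzymatically inactive relative of phosphoglucomutase that sits at adhesion plaques of muscle cells, was at 4.33 and 9.02 CPM under PBS and at 0.557 and 0.441 CPM under IL-1β. These are 26 and 120 read pairs under PBS and 17 and 5 under IL-1β. Pgm5 fell 13.1-fold (log2 fold change -3.71 ± 0.50 SE, edgeR adjusted p = 0.0117), the largest change of the 10 genes, and it alone was higher in PBS replicate 3 than in PBS replicate 2. The other 9 genes were 1.24 to 2.49-fold higher in PBS replicate 2 than in PBS replicate 3. Across the 13204 genes with reads in both, 10.8% were more than 1.5-fold higher in PBS replicate 2.

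The calls turned on which libraries entered the fit. Without PBS replicate 3 all 10 genes were called lower, where 8.46% of all genes were. Without PBS replicate 2 the 6 genes Tagln, Cnn1, Tpm1, Tpm2, Lmod1 and Pgm5 were called lower, where 12.7% of all genes were. Without IL-1β replicate 1 or IL-1β replicate 2 none of the 10 was called by edgeR, where 0% and 0.0142% of all genes were called lower. A lone library left in a group is assumed to vary like the other group. Without PBS replicate 2 the log2 fold changes shrank to -0.45 for Acta2, -0.42 for Actg2, -0.28 for Cald1 and -0.25 for Myl9, and without PBS replicate 3 they were -1.69, -1.64, -0.59 and -1.49. Under DESeq2, 8 genes were called lower, Acta2 and Cald1 being the exceptions, with 5.43% of all genes called lower. All 10 log2 fold changes stayed below 0 under each of the 14 alternative fits.

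**Figure D2:**
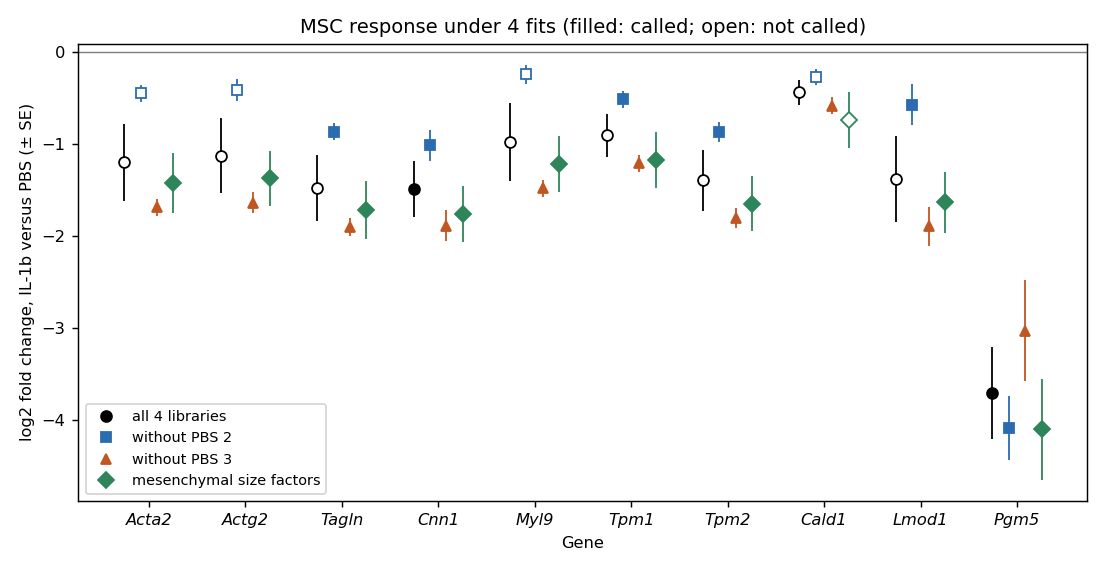
log2 fold change with SE of the 10 genes in MSC, IL-1β versus PBS, with all 4 libraries, without PBS replicate 2, without PBS replicate 3, and with size factors from mesenchymal markers, filled where called. All values lie below 0, and those without PBS replicate 2 are nearest to 0 for 9 genes but not for Pgm5.

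The summed mesenchymal markers differed between the PBS libraries as well, at 6224 CPM in replicate 2 and 3509 CPM in replicate 3, 1.77-fold apart. The sum of the 10 contractile genes was 2449 and 1286 CPM, 1.90-fold apart. Abundant genes led the mesenchymal sum, such as Fn1 (1694 and 844 CPM) and Sparc (1173 and 792 CPM). Pdgfra (21.3 and 32.9 CPM), Dcn (63.3 and 83.9 CPM) and Vcam1 (23.1 and 28.3 CPM) were lower in replicate 2. The contractile sum was also expressed as a percent of the mesenchymal sum in the same library. It was 39.3% and 36.6% under PBS and 12.99% and 13.1% under IL-1β. On this scale the contractile sums of the PBS libraries were within 1.07-fold of each other and 2.91-fold above the IL-1β libraries in the mean. Single genes ranged from 0.27-fold for Pgm5 to 1.41-fold for Lmod1 in PBS replicate 2 over replicate 3, with Acta2 at 1.33 and Cnn1 at 1.03. Each of the 10 genes was lower in both IL-1β libraries on this scale. The ratio of the means was 1.99-fold for Cald1, 3.08-fold for Acta2 and 3.80-fold for Tagln. The mesenchymal sum itself was higher under IL-1β, at 6558 and 6945 CPM, which lowers any percent of it. The share of all genes lower on this scale was not computed. Of the 18 mesenchymal markers tested, Dcn (log2 fold change 1.60), Col6a1 (0.64) and Vcam1 (0.64) rose, Kitl (-0.72) fell, and the collagen Col3a1 was at 2.04 without passing (edgeR adjusted p = 0.0851). Without its 5 collagens the list summed to 3549 and 2033 CPM under PBS and 2884 and 2731 CPM under IL-1β, and the contractile sum was 69.0% and 63.2% of it under PBS and 29.5% and 33.4% under IL-1β. With the size factors taken from the whole mesenchymal list, 9 of the 10 genes were called lower, all but Cald1, where 6.21% of all genes were called lower and the median gene stood at -0.33. With those from the list without collagens, an alternative added after the data were seen, 7 were called lower, where 2.18% of all genes were.

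**Figure D3:**
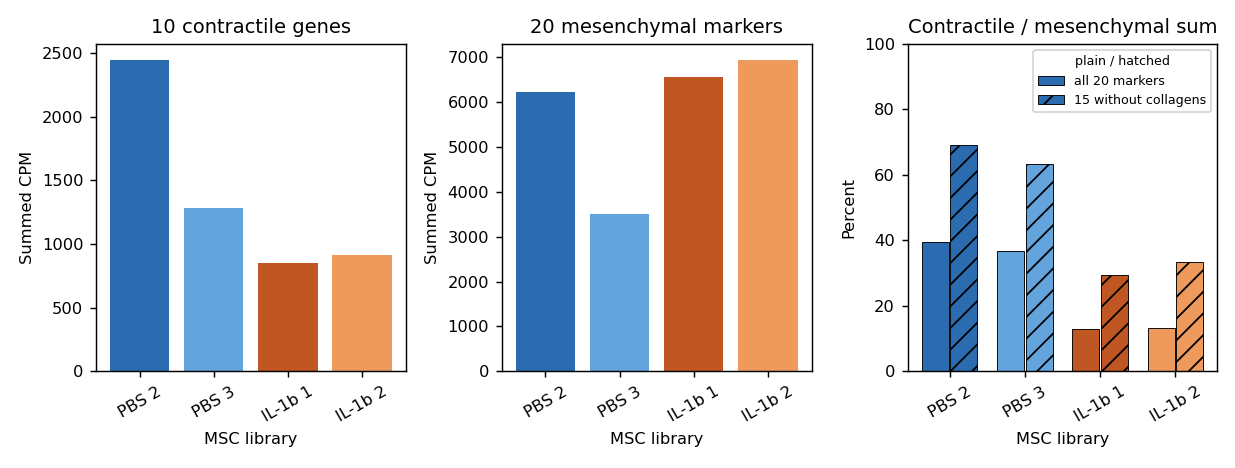
Summed CPM of the 10 contractile genes, summed CPM of the 20 mesenchymal markers, and the first as a percent of the second in each MSC library, with hatched bars for the 15 markers that are not collagens. With all 20 markers the percent is 39.3 and 36.6 under PBS but 12.99 and 13.1 under IL-1β.

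Of the 19 macrophage markers tested, 8 rose, led by Lyz2 (log2 fold change 1.77), Cd14 (1.40), Adgre1 (1.32) and Fcgr1 (1.29), none fell and 11 were not called. Cd68 (-0.47), Tyrobp (-0.33) and Fcer1g (-0.11) were lower in both IL-1β libraries without being called. Of the 9 pericyte and vascular smooth muscle markers, 6 were tested and 1, the pericyte proteoglycan Cspg4, fell (-1.77). These 9 summed to 38.3 and 23.8 CPM under PBS and to 21.3 and 21.6 CPM under IL-1β, with Kcnj8 and Higd1b at 0 in all 4 libraries and Myh11, the myosin heavy chain of mature smooth muscle, between 0.376 and 2.50 CPM. Of 7 endothelial markers 4 were tested and none was called, and their sum was 12.3 to 19.9 CPM. Of 7 platelet markers 3 were tested and Pf4 (2.33) and Ppbp rose, the latter from no read pair under PBS to 1.38 and 0.881 CPM under IL-1β, and of 8 stem and progenitor markers 7 were tested and Kit (-2.47) fell. The part of these other cell types in the contractile differences was not tested.

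Of 27 other contractile and adhesion genes, 26 were tested. Cavin1, a coat protein of caveolae, fell (log2 fold change -1.23), none rose, 25 were not called, and the median was -0.38. The lowest values among those not called were -1.98 for the intermediate filament gene Des, -1.19 for Fhl2, -1.08 for the myosin light chain kinase Mylk and -1.05 for Nexn. The groups did not overlap for 10 of the 26 in the lower direction and for 1 in the higher direction, against 29.8% and 31.3% of all genes.

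The non-muscle relatives of the contractile genes were measured beside them, and of 20 genes 16 were tested. The cytoplasmic actin Actg1 (log2 fold change -0.56) and the essential light chain Myl6 (-1.01) fell, Tmod3 (0.54), which caps filament ends, rose, and the median was -0.44. The groups did not overlap for 12 of the 16 in the lower direction and for 2 in the higher direction, against 29.8% and 31.3% of all genes. Per kilobase of exon, Acta2 and Actg2 together made up 16.6% and 6.94% of the 6 actins under PBS and 7.08% and 7.41% under IL-1β. The share in PBS replicate 3 was thus below that in the IL-1β libraries, and PBS replicate 2 alone was higher. Actb was lower with IL-1β too, at 4047 and 4806 CPM under PBS and 3342 and 3423 CPM under IL-1β. Tpm1 and Tpm2 together made up 37.9% and 26.6% of the 4 tropomyosins under PBS and 20.4% and 22.4% under IL-1β, and here the groups did not overlap. Tagln was 61.6% and 40.8% of the 3 transgelins under PBS and 29.3% and 32.5% under IL-1β, and Cnn1 was 9.74% and 8.11% of the 3 calponins under PBS and 5.14% and 5.59% under IL-1β. Myl9 was 65.0% and 59.5% of the 3 regulatory light chain genes under PBS and 59.3% and 56.1% under IL-1β, a separation of less than 1 percentage point between the nearest libraries. How read pairs that fit more than 1 of these related genes were split was not tested.

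**Figure D4:**
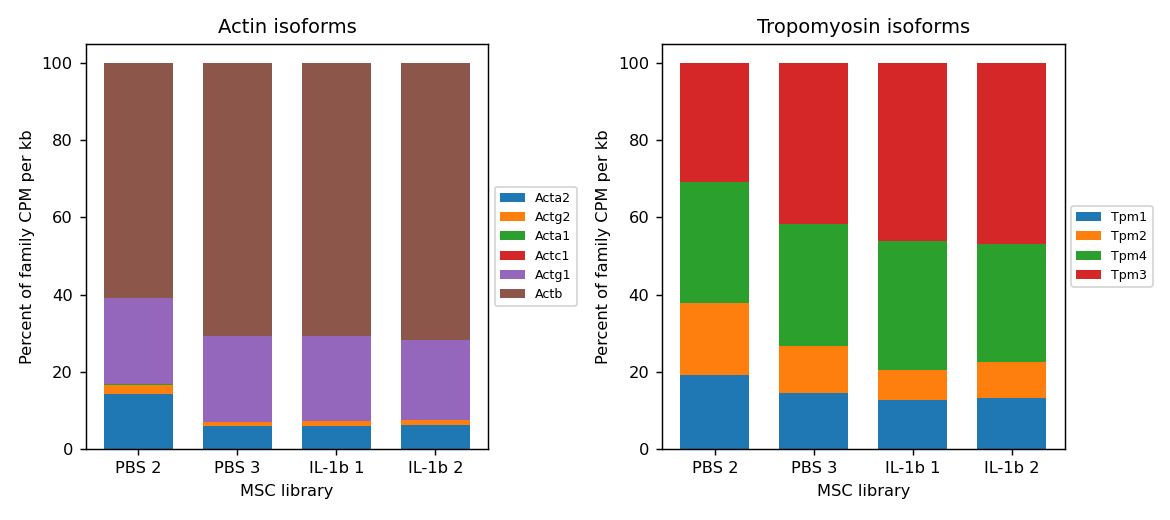
Share of each gene in the summed CPM per kb of the 6 actins and of the 4 tropomyosins in the 4 MSC libraries. Acta2 and Actg2 together reach 16.6% in PBS replicate 2 and 6.94% to 7.41% in the other 3 libraries, while Tpm1 and Tpm2 together are higher in both PBS libraries.

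Of 26 genes that regulate the contractile set (SRF, its cofactors and parts of the TGF-β and Hippo pathways), 25 were tested and the median log2 fold change was -0.18. Srf was level, at 48.1 and 48.3 CPM under PBS and 49.2 and 46.9 CPM under IL-1β. Myocd, the muscle cofactor of SRF, had no read pair in any MSC library, and the cofactor Mrtfa was at 108 and 91.7 CPM under PBS and 94.7 and 94.1 CPM under IL-1β. Tgfbr2, the type II TGF-β receptor, rose (0.85), and Elk4, which binds SRF in place of the cofactors, fell (-0.61). Elk3, of the same family, was 0.50 higher on the log2 scale and did not exceed the fold threshold. Tgfb3 (-1.64) and the pathway targets Ccn1 (-0.82) and Ccn2 (-0.72) were lower without being called. The groups did not overlap for 12 of the 25 in the lower direction and for 6 in the higher direction, against 29.8% and 31.3% of all genes. Ccn2 was at 530 and 238 CPM under PBS and at 231 and 234 CPM under IL-1β, so that PBS replicate 2 alone stood above the other libraries by more than their spread.

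Levels were compared between genes per kilobase of exon. Under PBS, Acta2 was highest at 251 ± 143 CPM per kb (SD, n = 2), followed by Tagln at 181 ± 88.2 and Myl9 at 90.2 ± 51.6. Tpm1 (54.3), Tpm2 (49.9) and Actg2 (44.2) formed the middle, then Cald1 (19.5), Cnn1 (9.70), Lmod1 (4.22) and Pgm5 (1.85), all as means in CPM per kb. The libraries of neighbouring genes in this order overlapped from Acta2 down to Actg2 and between Lmod1 and Pgm5, and were apart between Actg2, Cald1, Cnn1 and Lmod1. Cald1 was counted over 12041 exon bases, the longest of the 10.

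The sorted hematopoietic cells held little of this set. Lmod1 and Pgm5 had no read pair in any of the 10 LSK and LK libraries. Actg2 and Cnn1 had at most 2, Myl9 at most 3, Cald1 at most 4, Tagln at most 7 and Acta2 at most 8 read pairs in a library. Tpm1 was the exception, with 343 to 1854 read pairs, or 69.7 to 83.1 CPM in the PBS-treated LSK libraries and 78.1 to 95.2 CPM in the PBS-treated LK libraries. Tpm2 had 5 to 74 read pairs in LSK and 2 to 12 in LK.

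In a joint fit of the 14 libraries, Tpm1 was higher in PBS-treated MSC than in PBS-treated LSK cells (log2 fold change 2.61 ± 0.19 SE) and LK cells (2.32 ± 0.19 SE). Tpm2 was higher by 6.03 ± 0.46 SE against LSK and 8.07 ± 0.53 SE against LK on the log2 scale. The other genes were called higher as well, where 31.2% of the 15393 genes tested were against LSK and 31.9% against LK. Of the 10 genes, 8 had too few reads in LSK cells and 7 in LK cells to be tested there, so they could only be higher in MSC, and the count of calls is not read as support. Against the level that 3 read pairs per library would give, Acta2 was at least 3097-fold, Cald1 at least 1327-fold, Myl9 at least 590-fold, Actg2 at least 387-fold, Cnn1 at least 150-fold, Lmod1 at least 93.8-fold and Pgm5 at least 37.9-fold higher than in LSK cells. Without PBS replicate 2 of MSC these bounds were 1877-fold for Acta2, 1203-fold for Cald1, 358-fold for Myl9, 237-fold for Actg2, 108-fold for Cnn1, 54.6-fold for Lmod1 and 51.6-fold for Pgm5. The corresponding bounds against LK cells were 535-fold for Myl9, 351-fold for Actg2, 136-fold for Cnn1, 85.1-fold for Lmod1 and 34.4-fold for Pgm5, and without PBS replicate 2 of MSC they were 325-fold, 215-fold, 97.6-fold, 49.6-fold and 46.9-fold. Tagln had up to 5 read pairs in PBS-treated LSK and 7 in PBS-treated LK libraries, so no bound was taken. Its log2 fold changes in the joint fit were 10.96 ± 0.38 SE and 9.95 ± 0.35 SE. For Acta2 and Cald1 no bound was taken against LK cells, with up to 8 and 4 read pairs in a PBS-treated library. Their values there were 10.71 ± 0.47 SE and 11.01 ± 0.32 SE on the log2 scale. Tagln in both populations and Cald1 in LK cells had too few reads to be tested in the sorted cells alone. These sizes and errors rest on few read pairs. DESeq2 did not call Lmod1 in either comparison.

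**Figure D5:**
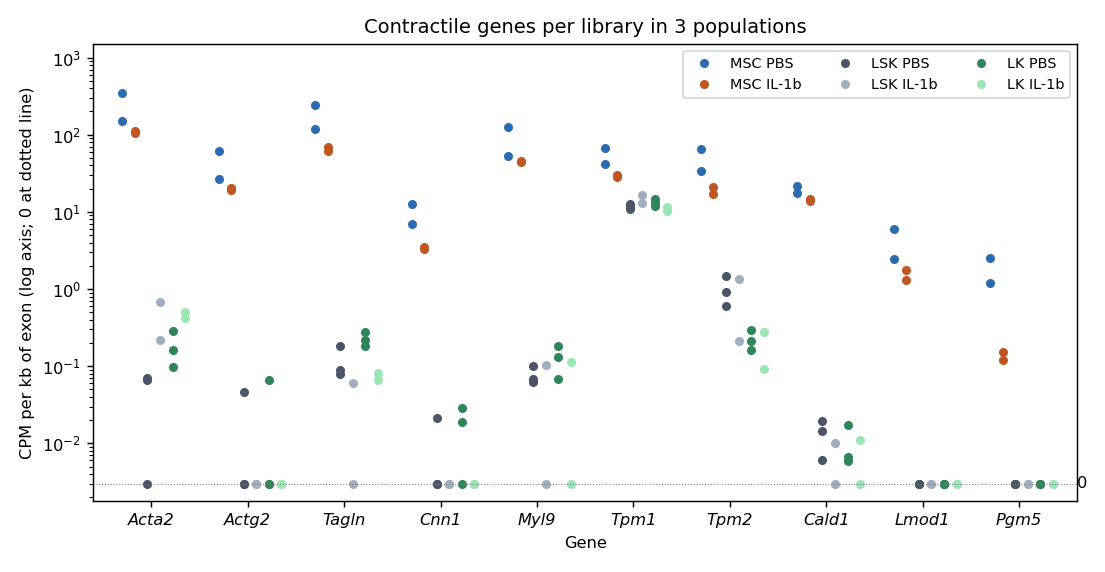
CPM per kb of exon (log axis) of the 10 genes in each library of the 6 groups, with libraries without a read pair drawn on the dotted line marked 0. Tpm1 is the gene with the closest levels in MSC, LSK and LK, and Lmod1 and Pgm5 are at 0 in all LSK and LK libraries.

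In LSK cells 2 of the 10 genes had enough reads to test the response to IL-1β, and neither was called, against 0.632% of the 13132 genes tested. Tpm1 was at 69.7, 77.8 and 83.1 CPM under PBS and at 108 and 84.9 CPM under IL-1β, higher without overlap as 18.2% of all genes were (log2 fold change 0.33 ± 0.24 SE, edgeR adjusted p = 0.494). Tpm2 was at 1.75, 2.66 and 4.32 CPM under PBS and at 0.608 and 3.96 CPM under IL-1β, so that the IL-1β libraries lay on either side of the PBS mean (edgeR adjusted p = 0.854). Neither gene had an unadjusted p under 0.05 and neither was called by DESeq2 or limma-voom.

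In LK cells 3 genes were tested and none was called, against 9.34% of the 12835 genes tested. Tpm1 was at 78.1, 95.2 and 86.3 CPM under PBS and at 66.7 and 75.3 CPM under IL-1β, lower without overlap as 22.2% of all genes were (log2 fold change -0.29 ± 0.12 SE, edgeR adjusted p = 0.195, unadjusted p = 0.0471). Acta2 was at 0.635, 0.359 and 0.214 CPM under PBS and at 0.926 and 1.12 CPM under IL-1β, higher without overlap as 23.5% of all genes were, on 3 to 8 read pairs a library (log2 fold change 1.34 ± 0.77 SE, edgeR adjusted p = 0.325). Tpm2 rested on 2 to 12 read pairs (edgeR adjusted p = 0.846). DESeq2 and limma-voom called none of the 3, and Tpm1 alone had an unadjusted p under 0.05.

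The response of MSC was compared with that of LSK and LK cells through the difference of the log2 fold changes, although doses, times and culture differed. For Tpm1 the MSC response was lower than the LSK response by a log2 difference of -1.20 ± 0.28 SE (edgeR adjusted p = 0.0206). The joint test called Tpm1 and Acta2 of the 10 genes, where 3.9% of all genes were called lower. Acta2 had 0 to 6 read pairs a library in LSK cells, was not tested in them alone and was not called by limma-voom, so no difference in response is read from its call. All genes together had a median difference of 0.15. The Tpm1 difference was not called without PBS replicate 2 (-0.83), IL-1β replicate 1 (-1.19) or IL-1β replicate 2 (-1.18) of MSC or IL-1β replicate 1 of LSK (-0.94). Against LK cells none of the 10 was called, where 2.04% of all genes were called in either direction and 1943 genes had an unadjusted p under 0.05. The Tpm1 difference there was -0.51 ± 0.28 SE (edgeR adjusted p = 0.513). DESeq2 called Acta2 and limma-voom called Pgm5, which has no read pair in LK cells. Acta2 alone had an unadjusted edgeR p under 0.05 (0.0113).

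Over the 14 libraries the genes whose log2 CPM followed that of Acta2 most closely, among 9656 genes with a mean log2 CPM of at least 3 in MSC, were Gabarap, Arl8b, C5ar1, Atp6v1h and Akr1b8, with Pearson's r of 0.987 to 0.990. These points share population, culture and depth within each set, and Acta2 had at most 8 read pairs in any LSK or LK library. The ranking therefore mostly sorts genes by their difference between MSC and the sorted cells, and no shared regulation is read from it. Of the other contractile genes, Lmod1 ranked 78th, Actg2 95th and Cnn1 124th, and Tpm2 ranked 1186th.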

How the data were processed

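RNA was sequenced from rRNA-depleted libraries. The authors trimmed reads with fastp 0.20.0, used HISAT2 2.0.1 for alignment (GRCm38) and featureCounts 2.0.2 for strand-aware counts of read pairs, per the labels and file headers. The deposited values are raw counts, with gene length (other). Symbols came from GENCODE M21. The MSC table's header names 1 further IL-1β library, not analysed here.

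Each population was fitted alone with edgeR 4.0.16 (R 4.3.3; filterByExpr, TMM, robust quasi-likelihood test, Benjamini-Hochberg over all genes tested), and all 14 libraries jointly with 6 group means. DESeq2 1.42.0, limma-voom 3.58.1, other scalings, other filters, a replicate block and leaving out each library were alternatives. CPM per kb uses exon length, and bounds were taken where no PBS-treated library of the sorted population had more than 3 read pairs. Library totals of 4393233 to 30871055 limit the precision of low genes, and bounds cover counting error only. The contractile genes and lists were chosen with earlier results of these data known. All 10 contractile genes were named, together with up to 4 called genes per list, low defining markers, and the 5 genes most like Acta2. Others named (Des, Fhl2, Mylk, Nexn, Srf, Myocd, Mrtfa, Elk3, Tgfb3, Ccn1, Ccn2, Col3a1, Fn1, Sparc, Pdgfra, Actb, Xist, Gm48529, Pcsk7, Cd68, Tyrobp, Fcer1g and the family members in shares) were picked after their values were seen. A result on 1 listed gene is not reported here.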

Additional observations from a re-analysis of the deposited data

Results flagged for a closer look

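The MSC and LSK responses to IL-1β differed for Tpm1 by a test of the difference itself (log2 difference -1.20, edgeR adjusted p = 0.0206). In MSC 2 of 2 IL-1β libraries were lower than both PBS libraries, as for 29.8% of all genes tested. In LSK cells 2 of 2 were higher than the 3 PBS libraries, as for 18.2%. Neither response was called alone (edgeR adjusted p = 0.0638 in MSC and 0.494 in LSK cells). The call was lost when certain single libraries were left out, and doses, times, culture and genotype differed.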

How the results depend on the processing

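In MSC the genes called lower numbered 2 of 10 with the main settings, where 4.31% of all genes were called lower. The number was also 2 with DESeq2 size factors, upper-quartile factors, the filter of 10 counts in 2 libraries and no fold threshold. The share of all genes called lower is not given for these settings, so the equal numbers are not read as support. In the fit of all 14 libraries, whose share is not given either, the 2 genes called lower were Tagln and Tpm1 in place of Cnn1 and Pgm5. They numbered 8 with DESeq2 (5.43% of all genes called lower), 5 with limma-voom (5.91%), 6 without a filter on low counts (4.06%), 9 with mesenchymal size factors (6.21%) and 7 with those without collagens (2.18%), and 0 to 10 when 1 library was left out. Over all genes the calls rose from 1515 to 2354 without a filter, fell to 424 in the fit of 14 libraries and to 799 with mesenchymal factors without collagens, and ran from 38 to 3819 without 1 library. Lower calls were 37.6% of the calls with the main settings, 50.4% with upper-quartile factors and 67.9% with mesenchymal factors. In the contrast of MSC and LSK responses, 0 to 2 genes were called when 1 library was left out, and in that of MSC and LK responses 1 gene was called with DESeq2, 1 with limma-voom and 1 without a filter. Direction turned 3 times among 666 single-gene values under alternatives, each for Tpm2: to 0.44 in LSK without IL-1β replicate 1, to 0.29 in LK without IL-1β replicate 1, and to 0.90 in the MSC and LSK contrast without LSK IL-1β replicate 2. Leaving out the other IL-1β library gave -2.22, -1.26 and -1.71 in these comparisons. The causes were not tested.

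No paired analysis was possible in MSC because its groups share only replicate number 2. In LSK and LK cells the replicate block left 0 contractile genes called. It moved the calls over all genes from 83 to 702 in LSK and from 1199 to 2331 in LK, while the deviations of same-numbered libraries correlated at 0.17 and -0.03 in LSK and at -0.12 and 0.08 in LK, so the libraries share a number and no pairing was taken from it. Calls in LSK cells were also 905 with DESeq2, 21 with limma-voom and 869 without a filter, and 1844 without a filter in LK cells, and those of the response contrasts rose from 1427 to 2331 and from 314 to 667 with DESeq2. At this depth 8 of the 10 genes in LSK cells and 7 in LK cells had too few counts to test.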
